A study of Mus musculus with 188 samples.

Results

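The 8 genes described here encode transcription factors that act when a basal keratinocyte of the epidermis leaves its progenitor state and begins to differentiate. They are Trp63, Klf5, Zfp750, Klf4, Maf, Ovol1, Grhl1 and Grhl3, chosen by name, and they are 8 of the 49585 gene rows in the count table. All 8 had a row that matched by Ensembl identifier, and all 8 reached 10 CPM in at least 10% of cells. CPM values are reads of a gene scaled to the same total of gene reads in every cell, with spike-in RNA left out. The relation examined was that to Krt10, the keratin that suprabasal cells make and that marks the first step of differentiation.

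The study took single cells from tail epidermis of mice of 20 days of age and asked how their transcriptomes differ. The animals carried Lrig1-CreERT2 and RosaYFP, so that cells that express Lrig1, or descend from such cells, can be labelled with yellow fluorescent protein. Sorting kept cells positive for integrin α6 and negative for CD34, a marker of hair follicle stem cells, and for the fluorescent protein, a gate meant for basal cells of the interfollicular epidermis. Each sample is 1 cell, prepared with Smart-seq2, which copies whole polyadenylated transcripts, and all form 1 group, with 94 cells on each of 2 plates. No other group is analysed here, and no label ties a cell to an animal or says how many animals were pooled. The spreads below are therefore spreads over cells of 1 group, and no p-value was computed.

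In textbook accounts, p63 (from Trp63) sets up and maintains the basal layer of stratified epithelia and switches on basal keratins and adhesion genes. Work in human keratinocytes places ZNF750 downstream of p63 and KLF4 beside ZNF750 in the switch to terminal differentiation, and MAF has been given a role in that switch too. In mice, Klf4 and Grhl3 are needed for the skin barrier, Grhl1 for desmosomes, and Ovol1 for the growth arrest of embryonic epidermal progenitors, while Klf5 is mostly a factor of proliferating epithelial cells.

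Depth ran from 79868 to 1093805 gene counts per cell (median 369991), and 5821 to 8720 genes had a read. Plate medians were 373722 counts on plate 1 and 366461 on plate 2, and no pair of cells held identical counts. Basal markers (Krt5, Krt14, Itga6, Col17a1 and Itgb4) summed to 3114 to 109745 CPM, with a median of 60146 CPM. The marker lists of melanocytes, Langerhans cells, T cells, Merkel cells and endothelial cells had a median of 0 CPM, and that of fibroblasts 3.47 CPM. None of these 6 lists had a rho with Krt10 outside -0.106 to -0.0520.

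Reads of one well also turned up in wells that share its lettered row or its column. From 31 genes with at least 70% of their reads in 2 cells, 31.5 stray reads were estimated per 10000 reads of the source in wells of the same row on both plates, 16.5 in wells of the same column and 1.68 elsewhere. The share of a cell's counts expected from other wells was 3.46% to 57.4%, with a median of 10.8%. A gene is called above background in a cell here when its reads exceeded 3 times that expectation. Relations are given both for CPM as counted and after this background was subtracted.

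Promoter sequences could be matched in RefSeq for 3 of the 8 genes, Grhl1, Grhl3 and Klf4. Those of Grhl1 and Grhl3 are shown because both genes were higher where Krt10 was higher and because they belong to 1 family. Each run covers 250 bases before to 50 bases after an annotated start, on GRCm38.p6, and capitals mark matches to the KLF motif CACCC on either strand. The GRHL motif AACNNGTT, also to be marked by capitals, had no match. Grhl1 has an upstream start, on the plus strand at chr12:24572037-24572336, and a downstream start, on the plus strand at chr12:24580469-24580768. The Grhl3 start lies on the minus strand at chr4:135573583-135573882.
Grhl1 upstream start: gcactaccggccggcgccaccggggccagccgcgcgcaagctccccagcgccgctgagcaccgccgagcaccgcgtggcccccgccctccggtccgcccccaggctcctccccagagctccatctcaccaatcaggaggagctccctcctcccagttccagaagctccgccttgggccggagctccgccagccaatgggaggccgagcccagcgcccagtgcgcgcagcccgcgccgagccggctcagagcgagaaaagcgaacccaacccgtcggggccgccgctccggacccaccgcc
Grhl1 downstream start: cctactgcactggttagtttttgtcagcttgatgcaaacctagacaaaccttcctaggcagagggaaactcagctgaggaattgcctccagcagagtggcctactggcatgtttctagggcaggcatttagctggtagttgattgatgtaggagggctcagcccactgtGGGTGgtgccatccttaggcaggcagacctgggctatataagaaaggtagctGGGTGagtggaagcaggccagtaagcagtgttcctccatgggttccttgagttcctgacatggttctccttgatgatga
Grhl3: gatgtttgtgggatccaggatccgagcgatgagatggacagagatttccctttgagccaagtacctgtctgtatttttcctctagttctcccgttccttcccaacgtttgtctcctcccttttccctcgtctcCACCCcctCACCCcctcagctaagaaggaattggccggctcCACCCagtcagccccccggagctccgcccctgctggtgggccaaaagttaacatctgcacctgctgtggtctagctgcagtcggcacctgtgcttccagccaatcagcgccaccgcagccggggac
The downstream Grhl1 start held 2 KLF matches, the Grhl3 start 3, and the upstream Grhl1 start none. Of all 32851 promoters in the table, 57.5% held that motif and 4.20% the GRHL motif, so a KLF match is common. Klf4, not printed, had no match to either. None of the 4 promoters held the AP-1 letters TGANTCA, the MAF letters TGCTGAC, the OVOL letters CCGTTA or the TATA box letters TATAAA, which stood in 7.81%, 4.67%, 2.76% and 13.6% of all promoters. The loose core motif of the p53 family matched in all 4 and in 70.2% of all promoters. Both strands were searched. Matches are a description of letters, not of binding, and GC content was 75.3% at the upstream Grhl1 start, 51.3% at the downstream one and 58.3% at Grhl3.

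The factors fell into a widely detected set and a sparsely detected set. Klf4 reached 10 CPM in 100% of cells, Trp63 in 99.5%, Maf in 98.9% and Klf5 in 98.4%. Ovol1 reached it in 53.7% of cells, Grhl1 in 99 (52.7%), Zfp750 in 83 (44.1%) and Grhl3 in 48 (25.5%). Exact Clopper-Pearson 95% intervals, which cover the counting of cells only, were 36.9% to 51.6% for Zfp750 and 19.5% to 32.4% for Grhl3. So 6 of the 8 factors were detected in at least 50% of cells at this limit.

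Detection depends on where the limit is set, since a well can hold stray reads. At least 1 read of Zfp750 was counted in 84.04% of cells, in 50.5% after every cell was thinned to 75000 counts, and above background in 33.5% (63 cells). Above background, Trp63, Maf and Klf4 each stood in 80.3% of cells, Klf5 in 74.5%, Ovol1 and Grhl1 in 75 each (39.9%) and Grhl3 in 44 (23.4%). With background of the same plate only, the form planned at first, more cells passed. Zfp750 was then above in 72 cells, Ovol1 and Grhl1 in 84 each and Grhl3 in 66. Trp63 and Klf4 stood in 87.8%, Maf in 87.2% and Klf5 in 83.5%. In either form the rule is harder to pass in shallow wells, so these shares can understate a gene that most cells carry. Medians of the sparsely detected factors also depend on it, and after subtraction they were 0.953 CPM for Zfp750, 2.94 for Ovol1, 2.89 for Grhl1 and 0 for Grhl3, against 7.60, 14.2, 11.0 and 3.33 CPM as counted. For Zfp750, 31 of the positive cells were on plate 1 and 32 on plate 2, while for Grhl3 27 were on plate 1 and 17 on plate 2.

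Levels between genes were compared per kb of merged exons, since whole-transcript reads grow with length. Klf4 had the highest mean, 134.3 CPM per kb, followed by Klf5 at 40.1, Trp63 at 29.4, Maf at 23.8, Ovol1 at 21.3, Zfp750 at 18.4, Grhl3 at 10.2 and Grhl1 at 9.22 CPM per kb. Below Klf4, neighbours in this order differed by less than their SD over cells. The step from Klf4 to Klf5 was slightly less than the SD of Klf4 per kb and more than that of Klf5. The SD was 0.713 times the mean for Klf4 and 0.770 times for Trp63, against 1.74 times for Zfp750 and 2.49 times for Grhl3. Of all Grhl3 reads, 81.6% came from the 10% of cells with most of them, against 31.2% for Trp63.

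Cells were next ordered by Krt10. Krt10 ranged over 185.4 to 45289 CPM with a median of 882 CPM, and it was above background in 55 cells. With background of the same plate only, it was above in 83 cells. Ranked within each plate and cut into 4 bins of 48, 46, 48 and 46 cells, median Krt10 was 422, 739, 1376 and 17245 CPM from the lowest to the highest bin. Krt10 was above background in 0, 3, 8 and 44 cells of these bins, so the order of the lower bins rests on Krt10 mostly not above background. With background subtracted before binning, mean Krt10 was 4.64, 141.8, 930 and 18186 CPM. How far stray reads set the order of the lower bins was not tested. Mean Krt14 was 39201, 37124, 36188 and 16669 CPM, and so only the highest bin had far less of this basal keratin. Depth was not even over them, with median counts of 519404, 336482, 263163 and 389560 and median expected background of 8.43%, 12.3%, 15.1% and 9.96%.

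A factor was called higher or lower with Krt10 when its Spearman rho with Krt10 CPM reached 0.3, or -0.3, on each of the plates. By this rule of size, 4 of the 8 factors were higher (Zfp750, Grhl1, Ovol1 and Grhl3) and 1 was lower (Trp63), while Klf4, Klf5 and Maf were not called. The same rule called 0.631% of the 9344 genes tested higher and 0.471% lower. Over all those genes the median rho was -0.00458 and the central 95% lay between -0.227 and 0.231. After background subtraction the shares of all genes were 0.546% in each direction, and 3 of the factors remained higher and Trp63 lower.

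**Figure D1:**
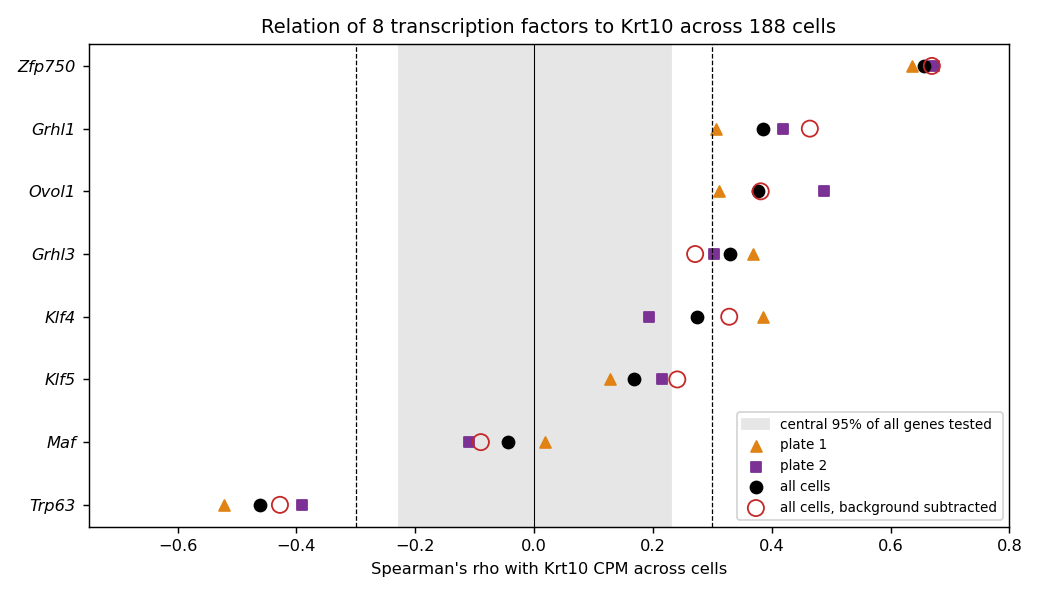
Spearman's rho of each factor with Krt10 CPM, on each plate of 94 cells, over all cells and after background subtraction, with the central 95% of all genes tested in grey and dashed lines at the limits of 0.3 and -0.3. Zfp750 stands apart on the right at 0.657 and Trp63 on the left at -0.461, while Grhl1, Ovol1 and Grhl3 lie just past the limit on at least 1 plate.

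Trp63, the master factor of the basal layer, was lower where Krt10 was higher. Over all cells it had 9.10 to 1183 CPM, with a median of 200 CPM and a mean of 246 ± 189.6 CPM (SD over all cells). Its mean was 332, 299, 224 and 126.3 CPM from the lowest to the highest Krt10 bin, with SDs of 174.02, 247, 148.8 and 87.2 CPM. The highest bin spanned 12.1 to 345 CPM, with a median of 109.8 CPM, and the lowest bin 14.9 to 809 CPM, with a median of 304 CPM. The bins overlapped, and no cell of the highest bin reached the upper part of the range of the lowest. The mean in the highest bin was 0.380 times that in the lowest.

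Trp63 had a rho with Krt10 of -0.461 over all cells, -0.522 on plate 1 and -0.390 on plate 2, and Pearson's r of log2(CPM + 1) was -0.461. It ranked 18 from the bottom of the 9344 genes by the plate nearer to 0. The transcript was still above background in 30 of the 46 cells of the highest bin, against 46 of the 48 cells of the lowest. Its rho with Krt14, the keratin of the basal layer, was 0.36, which also passed the limit on both plates. Counted per spike-in read, a scale on which the median gene had a rho of 0.10 with Krt10, Trp63 had -0.234 and was not called. With Krt1 in place of Krt10 it had -0.318 over all cells and was not called, since plate 2 alone had -0.184.

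Zfp750, a zinc finger factor reported to act downstream of p63, was the factor most closely tied to Krt10. It had 0 to 550 CPM, with a median of 7.60 CPM and a mean of 59.4 ± 103.5 CPM (SD over all cells). Its means were 20.1, 14.6, 53.7 and 151.1 CPM from the lowest to the highest bin, with SDs of 73.7, 44.7, 104.8 and 114.2 CPM. The highest bin ran from 0 to 476 CPM, with a median of 128.6 CPM, and the lowest from 0 to 416 CPM, with a median of 2.46 CPM. Most cells of the lower bins thus sat near 0 and a few were as high as cells of the top bin. The mean in the highest bin was 7.52 times that in the lowest. With background subtracted, both from Krt10 before the cells were binned and from the factor, the highest bin had a mean of 162.3 CPM and the lowest 0.835 CPM, so the ratio of 194 rests on a mean near 0. In those bins Zfp750 was above background in 0, 5, 16 and 42 cells.

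Zfp750 was above background in 3, 4, 14 and 42 cells of the 4 bins. Its share at 10 CPM or more was 8.33%, 23.9%, 54.2% and 91.3%, and the share with a read after thinning was 16.7%, 39.1%, 54.2% and 93.5%. The rho with Krt10 was 0.657 over all cells, 0.636 on plate 1, 0.673 on plate 2 and 0.669 after subtraction. Ranked by the plate nearer to 0, where it had 0.636, it stood 2 from the top of the 9344 genes, after Krt1, the keratin partner of Krt10, at 0.640. Over all cells Calm4 (0.692), Krtdap (0.680) and Ly6d (0.664) had a higher rho. The call stood under all 15 alternatives, with a rho of 0.420 to 0.673. Those that use a single plate could not lose it, since a call already needs both plates to pass.

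Zfp750 and Krt10 were on the same side of the background limit in most cells but not in all. Both were above background in 45 cells and neither in 61.2% of cells. In 18 cells Zfp750 was above background and Krt10 was not, and in 10 cells the reverse held. Median Krt10 was 7280 CPM where Zfp750 was above background and 701 CPM where it was not. Median Trp63 was 125.7 CPM in the Zfp750-positive cells and 252 CPM in the others. Median expected background was 10.1% in the positive cells and 11.4% in the others.

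Zfp750 also went with other keratins of differentiation. Its rho was 0.42 with Krt1, 0.41 with Krt2, a late suprabasal keratin, and 0.34 with Krt16, a keratin of activated epidermis, and each passed the limit on both plates. With Krt14 it was -0.39, also past the limit. After subtraction the relation to Krt2 was 0.323 and no longer passed, because plate 1 had 0.251.

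**Figure D2:**
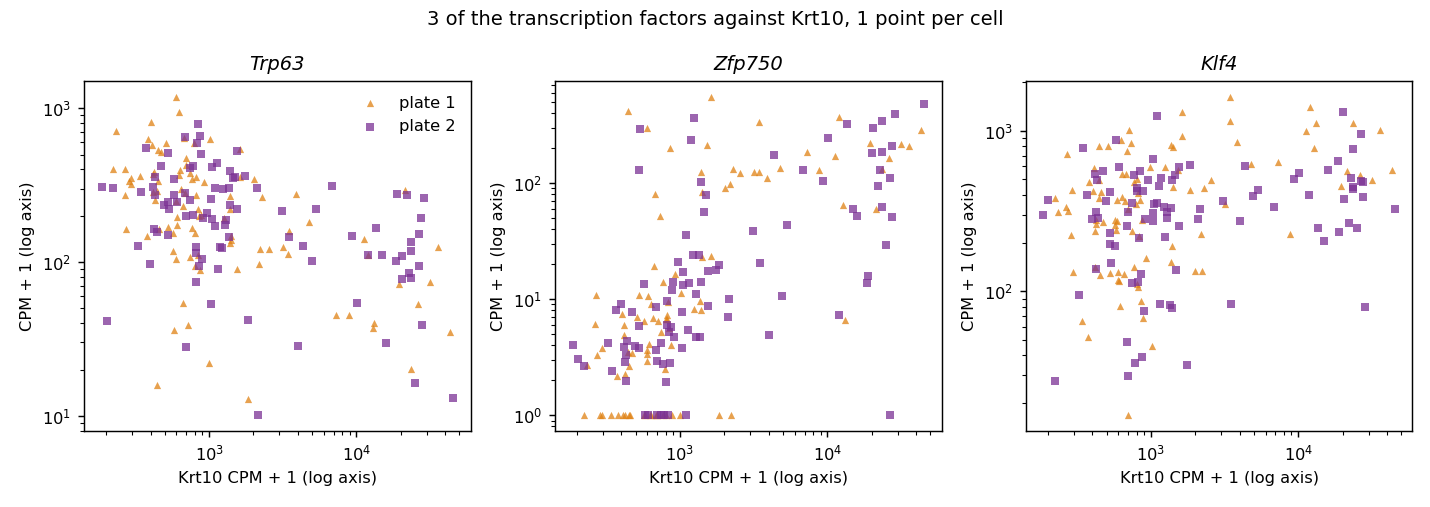
Trp63, Zfp750 and Klf4 against Krt10, each as CPM + 1 on log axes, with 1 point for each cell and the plates as triangles and squares. Trp63 slopes down (rho -0.461), Zfp750 goes up (rho 0.657) with many cells near 0 at low Krt10, and Klf4 is broad throughout (rho 0.274).

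The grainyhead factors Grhl1 and Grhl3 and the repressor Ovol1 were also higher with Krt10, less far past the limit. Grhl1, which in mice acts on desmosomal cadherins, had means of 39.9, 17.5, 34.7 and 113.5 CPM from the lowest to the highest bin, with SDs of 64.4, 36.7, 60.96 and 109.8 CPM. The highest bin held 0 to 442 CPM with a median of 84.1 CPM, and the lowest 0 to 323 CPM with a median of 9.60 CPM. Grhl1 was above background in 19, 8, 12 and 36 cells of the bins, and its lowest mean was in the second bin. With Krt10 and Grhl1 both background-subtracted, these were 8, 16, 14 and 37 cells with means of 16.3, 36.4, 34.3 and 121.6 CPM, and the lowest bin was then lowest. Its rho with Krt10 was 0.386 over all cells, 0.307 on plate 1, 0.418 on plate 2 and 0.464 after subtraction.

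Grhl3, which in mice is needed for barrier formation, had means of 17.4, 7.74, 20.4 and 69.2 CPM in the bins, with SDs of 65.96, 19.8, 44.3 and 107.4 CPM. The highest bin ranged over 0 to 398 CPM with a median of 6.82 CPM, and the lowest over 0 to 390 CPM with a median of 0 CPM. It was above background in 7, 6, 10 and 21 cells. With background subtracted in the same way, the means were 7.92, 22.3, 13.04 and 73.7 CPM. In the highest bin, 45.7% of cells reached 10 CPM. Its rho with Krt10 was 0.330 over all cells, 0.368 on plate 1 and 0.303 on plate 2. After subtraction it was 0.271 and was not called.

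Ovol1, a zinc finger repressor, had means of 64.3, 34.99, 73.1 and 125.6 CPM in the bins, with SDs of 125.7, 63.6, 121.6 and 124.1 CPM. The highest bin held 0 to 516 CPM with a median of 78.5 CPM, and the lowest 0 to 600 CPM with a median of 4.49 CPM. It was above background in 13, 10, 19 and 33 cells, and the bins overlapped over nearly their whole range. With background subtracted in the same way, the means were 28.1, 62.3, 76.9 and 133.1 CPM. Its rho with Krt10 was 0.378 over all cells, 0.312 on plate 1, 0.488 on plate 2 and 0.381 after subtraction. Ovol1, Grhl1 and Grhl3 ranked 54, 55 and 58 from the top of the 9344 genes by the plate nearer to 0. The calls of all 3 rest on a plate near the limit, and each was lost under some of the alternatives.

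The 2 Krüppel-like factors had their largest means in the highest bin but were not called. Klf4, which is needed for the barrier in mice, had 15.9 to 1622 CPM with a median of 358 CPM and a mean of 410 ± 292 CPM (SD over all cells). Its means were 350, 348, 366 and 578 CPM in the bins, with SDs of 210, 270, 257 and 358 CPM. The highest bin held 78.5 to 1622 CPM with a median of 494 CPM, and the lowest 26.6 to 871 CPM with a median of 312 CPM. The mean in the highest was 1.65 times that in the lowest. As counted, the first 3 bins had nearly the same mean, but with background subtracted the means were 288, 304, 407 and 623 CPM, and the highest was 2.17 times the lowest.

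Klf4 had a rho with Krt10 of 0.274 over all cells, with 0.385 on plate 1 and 0.194 on plate 2, so the plates differed and it was not called. After subtraction the value was 0.328 over all cells and 0.232 on plate 2, still short of the rule. Counted per spike-in read it was 0.435 and passed, on a scale that moved the median gene to 0.10. With Krt1 its rho was 0.364, and 0.403 after subtraction, where it passed on both plates.

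Klf5, a factor of proliferating epithelia, had up to 839 CPM, with a median of 169.5 CPM and a mean of 208 ± 166.03 CPM (SD over all cells). Its means were 194, 168.7, 175.3 and 297 CPM in the bins, with SDs of 143.7, 111.9, 107.1 and 240 CPM. The highest bin held 3.40 to 839 CPM with a median of 239 CPM, and the lowest 5.62 to 651 CPM with a median of 159.2 CPM. The rho with Krt10 was 0.168 over all cells, 0.128 on plate 1 and 0.215 on plate 2, and it was not called. With background subtracted the means were 137.8, 181.5, 190.8 and 311 CPM. Counted per spike-in read the rho was 0.332 and passed.

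Maf, a basic leucine zipper factor with a reported role in human keratinocyte differentiation, did not track Krt10 on either plate. It had 4.94 to 1090 CPM with a median of 153.4 CPM and a mean of 196 ± 153.3 CPM (SD over all cells). Its means were 182.6, 235, 186.5 and 182.5 CPM in the bins, with SDs of 149.9, 188.7, 125.5 and 141.97 CPM. The highest bin spanned 10.1 to 555 CPM and the lowest 4.94 to 633 CPM, an almost complete overlap. The rho was -0.0442 over all cells, 0.0182 on plate 1 and -0.109 on plate 2. Across 15 alternatives the rho over the cells used stayed between -0.109 and 0.152, and Maf was never called. Within single plates it ran further, to -0.222 on plate 2 after subtraction over both plates and 0.216 on plate 1 per spike-in read.

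**Figure D3:**
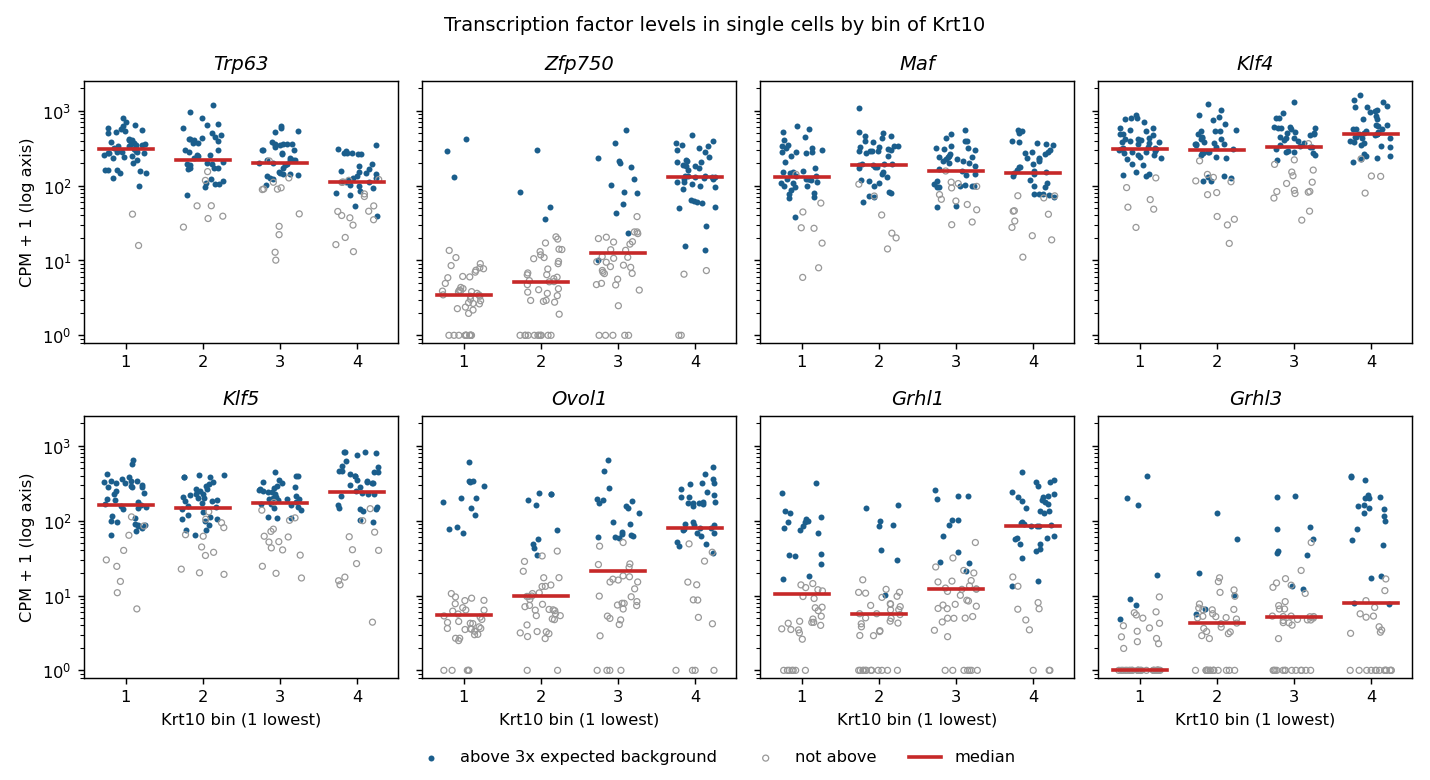
CPM + 1 of each factor on a log axis in the 4 bins of cells by Krt10 within plate, with 1 point per cell, filled where reads exceed 3 times the expected background, and red lines at the medians. The Trp63 median is 109.8 CPM in the highest bin, against 304 CPM in the lowest, and the Zfp750 median is 128.6 CPM in the highest bin, where 42 of 46 points are filled.

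The 4 factors called higher did not appear together in every cell with Krt10. None of Zfp750, Ovol1, Grhl1 and Grhl3 was above background in 64 cells, 1 in 53 cells, 2 in 29 cells, 3 in 22 cells and all 4 in 20 cells. Median Krt10 in these cells was 739, 777, 1099, 9263 and 19442 CPM, in the order of 0 to 4 factors. Median Trp63 was 246, 267, 197, 153.1 and 63.2 CPM in the same order. Of the 20 cells with all 4, 16 were in the highest Krt10 bin, 3 in the third and 1 in the lowest. With 10 CPM as the limit instead, the groups held 38, 49, 44, 34 and 23 cells and median Krt10 was 563, 712, 1034, 3442 and 18656 CPM. Median Krt10 went up with the number of factors under both limits. The 4 factors were picked by their rho with Krt10, so this rise was built in and is no separate result. Trp63 was called lower by the same rule, so its medians are no separate support either. The largest ratio of neighbouring medians lay between 2 and 3 factors above background but between 3 and 4 factors at 10 CPM.

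Among the 28 pairs of factors, 3 had a rho of at least 0.3 on both plates, and each of them held Zfp750. All factors of these pairs were called higher with Krt10, so the pairs are no separate result. The share over all pairs of genes was not computed. It was 0.359 with Ovol1, 0.399 with Grhl1 and 0.377 with Grhl3 over all cells. After subtraction the pair with Grhl3 had 0.275 and was not called. By contrast, Grhl1 and Grhl3 had a rho of 0.163 with each other, Ovol1 and Grhl1 0.253, and Ovol1 and Grhl3 0.202. The median over pairs was 0.162.

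Trp63 was negative with 6 of the other factors and positive with Maf. Its lowest value was -0.339, with Zfp750, where plate 1 had -0.391 and plate 2 -0.249, and no pair was called lower. Klf4 had 0.317 with Ovol1, 0.266 with Grhl1 and 0.252 with Zfp750. Klf4 and Klf5 had 0.391 on plate 1 and -0.0392 on plate 2, so their relation was not the same on the plates. All pairs share the same cells and depths, and all values are descriptions.

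**Figure D4:**
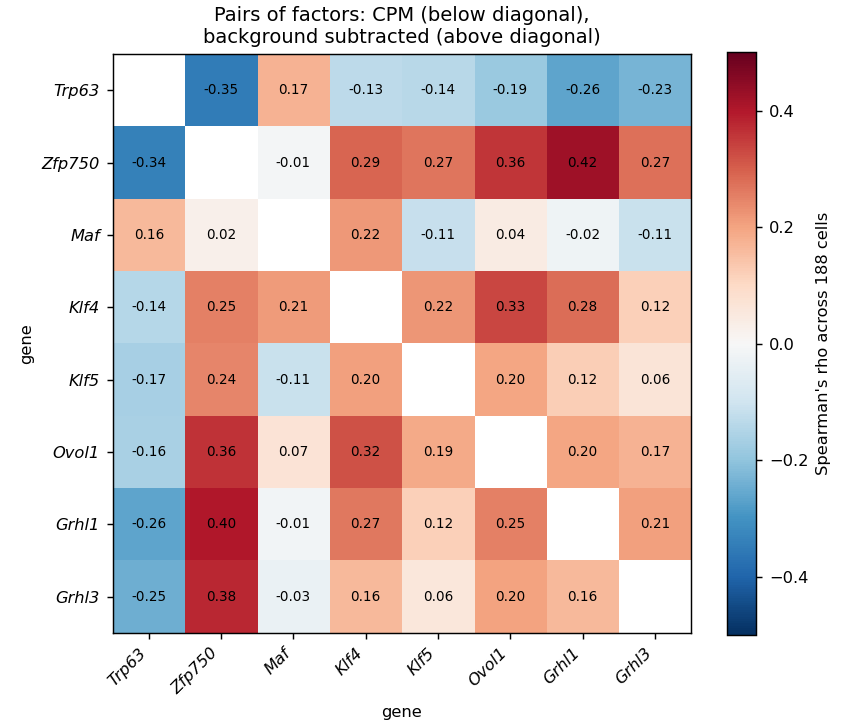
Spearman's rho for each pair of factors over all cells, from CPM below the diagonal and after background subtraction above it, with red for positive and blue for negative values. The deepest red cells lie with Zfp750 (up to 0.40 with Grhl1) and the deepest blue cell is that of Trp63 with Zfp750 at -0.34.

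The genes most like each factor over the same cells were ranked by the plate nearer to 0 among the 9344 genes. For Trp63 they were Sparc (rho 0.40), a matrix protein, Tns1 (0.38), a focal adhesion protein, and Lamb3 (0.41), a laminin chain of the basement membrane. Its most opposite genes were Ly6d (-0.51), Calm4 (-0.47) and Lypd3 (-0.45), which are surface and calcium-binding proteins of differentiating keratinocytes. For Zfp750 the most alike were Krt10 (0.66), the glycolipid transfer protein gene Gltp (0.52) and Ly6d (0.49), and the most opposite Dlk2 (-0.41), Krt14 (-0.39) and Lamb3 (-0.42). So Lamb3 stood at opposite ends for these factors.

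Zfp750 stood among the 3 most alike genes of 4 other factors. Of these, Ovol1, Grhl1 and Grhl3 were called higher with Krt10, as Zfp750 was, so this is no separate result for them. Ovol1 had Zfp750 (0.36) and the desmosomal cadherin Dsg1a (0.34) among its 3. Grhl1 had the galectin gene Lgals3 (0.41), the desmosomal gene Perp (0.41) and Zfp750 (0.40). Grhl3 had Zfp750 (0.38), Krt10 (0.33) and Ankrd35 (0.27). Klf5 had Crabp2 (0.29), which binds retinoic acid, Zfp750 (0.24) and Lgals3 (0.24).

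The nearest genes of Klf4 were Pkp1 (0.38), Dsp (0.39) and Jup (0.34), which all encode plaque proteins of desmosomes. Maf had weak neighbours, Abcb1b (0.29), Mfge8 (0.26) and Golga1 (0.25), none of which reached 0.3 over all cells. The same held for the 3 nearest genes of Klf5. At the opposite end, Ovol1 had Dlk2 (-0.31), Wnt10a (-0.30) and S100a6 (-0.27), and Grhl1 had Cavin3 (-0.37), the ferritin gene Ftl1 (-0.36) and H19 (-0.36). Grhl3 had Tns1 (-0.30), Ptpre (-0.28) and Trp53 (-0.29), Klf4 had Cth (-0.35), Psmb1 (-0.30) and Prdx1 (-0.28), Klf5 had Hmgxb4 (-0.24), Ftl1 (-0.27) and Rrm1 (-0.24), and Maf had Actb (-0.28) and Zfp398 (-0.28) among its 3.

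None of the 8 factors passed the limit with the S phase score. That score is the mean over S phase genes of log2(CPM + 1), each gene first scaled to its mean and SD over cells. The values ran from 0.165 for Maf and 0.110 for Trp63 to -0.222 for Klf5 and -0.245 for Zfp750. Of the 20 S phase genes tested, 1 was lower with Krt10, the replication helicase gene Mcm5 (rho -0.379), and the median was -0.219. The rule called 0.471% of all genes tested lower. The most abundant others, Mcm6 (-0.221), Pcna (-0.229) and Mcm4 (-0.223), were not called. The spread of Zfp750 between plates was wide here, with -0.118 on plate 1 and -0.400 on plate 2.

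Of 61 other listed transcription factors and chromatin regulators of the epidermis, 46 were tested. By the rule 1 was higher with Krt10 and 0 were lower, against 0.631% and 0.471% of all genes tested, and the median rho was 0.00893. Cebpa, a factor of growth arrest in keratinocytes, had 0.350 and was called only after subtraction, at 0.396. Grhl2, the third grainyhead gene, reached 10 CPM in 77.1% of cells, where its mean over all cells was 77.2 ± 91.1 CPM (SD), and had a rho of -0.106. The most abundant others were Id3 at 376 CPM (rho -0.101), Klf13 at 247 CPM (0.199) and Ets2 at 232 CPM (-0.213).

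Of 18 reported partners of p63, Zfp750 and Klf4, 16 were tested and 0 were called in either direction, with a median of -0.0669. The rule called 0.631% of all genes tested higher and 0.471% lower, so 0 of 16 is near that share. Past -0.3 on one plate only were Dnmt3a, a DNA methyltransferase, on plate 1 (-0.311, with -0.263 on plate 2) and, on plate 2, the maintenance methyltransferase gene Dnmt1 (-0.331), its cofactor gene Uhrf1 (-0.352), Trp53 (-0.346) and Trp73 (-0.339). The partners of ZNF750 in human cells that were tested, Kdm1a, Rcor1, Ctbp1 and Ctbp2, had 0.0662, 0.0952, 0.00235 and -0.0830. The remodelling ATPase gene Smarca4 had 0.141, and Trp53 and Trp73, the relatives of Trp63, had -0.295 and -0.186 over all cells.

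Genes reported as p63 targets were called in both directions. Of 26 tested, 8 were lower and 3 were higher with Krt10, against 0.471% and 0.631% of all genes tested. The median rho was -0.297 against -0.00458 over all genes. The lower ones were the basal keratin Krt14 (-0.520), the integrins Itga3 (-0.479), Itga6 (-0.482), Itgb4 (-0.424) and Itgb1 (-0.461), the hemidesmosomal collagen Col17a1 (-0.452), Lamb3 (-0.543) and the Notch ligand Jag2 (-0.563). Lamb3 means were 319, 305, 239 and 85.95 CPM in the bins. The higher ones were Perp (0.605) and Dsp (0.357), both of desmosomes, and Cdkn1a (0.534), the cell cycle inhibitor p21. Perp means were 5162, 5267, 6129 and 9731 CPM, so this target was higher in the bin where Trp63 was lowest. The most abundant others, Krt5 (-0.459), Dst (-0.336) and Sfn (0.351), each missed the limit on plate 1. Integrin α6 was also the protein sorted on.

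Targets reported for the grainyhead factors had a positive rho in all 8 that were tested of 13, against 47.9% of all genes tested. By the rule, 2 were higher and 0 lower, with a median of 0.273, against 0.631% and 0.471% of all genes. The higher ones were the desmosomal cadherins Dsg1a (0.617) and Dsg1b (0.478), which are also in the list of early differentiation genes. Reads of such close paralogs may be split between them. The most abundant others, Rab25 (0.345), Cdh1 (0.208) and Esrp1 (0.183), were not called. Tgm1, the cornified envelope enzyme, reached 10 CPM in 1.60% of cells.

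Of 21 reported Klf4 and Zfp750 targets, which include Krt10 itself, 12 were tested, 3 were higher and 0 lower, with a median of 0.210. Over all genes tested, 0.631% were higher and 0.471% lower. The higher ones were Krt1, Krtdap (0.680), a secreted protein of early differentiation, and Dsg1b. The most abundant others, Ppl (0.176), Evpl (0.231) and Cds1 (0.273), were not called. Genes of the cornified layer were scarce. Lor reached 10 CPM in 22.9% of cells with a rho of 0.0705, Flg in 7.98% and Ivl in 1.60%. The lists of early differentiation and basal genes were used to check the axis, and 10 of 13 tested early genes were higher, led by Krt1, Ly6d (0.664) and Calm4 (0.692), and 10 of 16 basal genes lower, led by Plec (-0.513), Sparc and Lamb3. These lists overlap with each other and with the target lists.

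**Figure D5:**
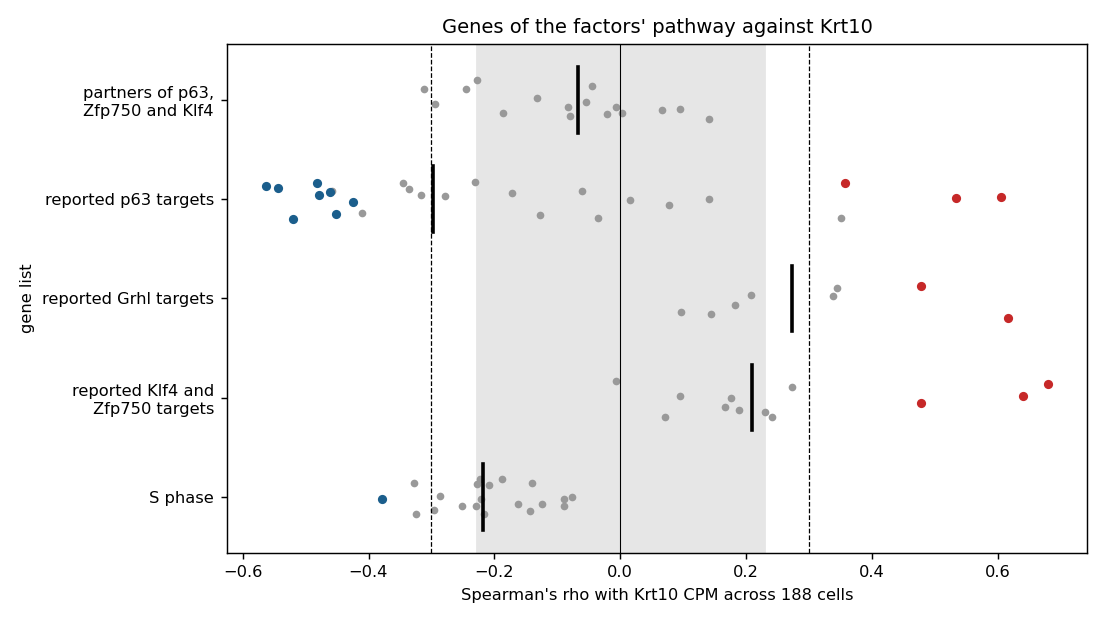
Spearman's rho with Krt10 CPM over all cells for each tested gene of 5 lists, with 1 point per gene, red and blue points for genes past 0.3 or -0.3 on both plates, grey points for the rest, black bars at list medians and the central 95% of all genes in grey. The p63 targets reach far to the left, with 3 red points on the right. None of the 16 tested partners is coloured, while the rule called 0.631% of all genes tested higher and 0.471% lower.

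Where the genes lie bears on how their reads could be counted, since no source says that strand was used in counting. In GRCm38, Trp63 (ENSMUSG00000022510.14) lies on chromosome 16 from 25683763 to 25892102 on the plus strand, and Zfp750 (ENSMUSG00000039238.6) on chromosome 11 from 121510978 to 121519333 on the minus strand. Zfp750 lies within Tbcd, a gene on the other strand with which it shares 0 exon bases, and Tbcd had a rho with Krt10 of 0.117. Maf shares 440 exon bases with the antisense gene Gm15655 and Ovol1 690 with Gm31166, and both had 0 reads. Krt10 also overlaps exons of the antisense gene Gm11940, which had 490 reads against 393494 for Krt10. Reads of such pairs cannot be told apart.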

How the data were processed

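Single sorted cells of 1 group were sequenced, 1 cell per sample. The authors deposited whole-number read counts per gene without normalization. Tools named in the submitters' processing notes are STAR 2.5.2b, cutadapt 1.13 and HTSeq 0.6.0, with the build GRCm38, while their settings are not given in the sources consulted. The table held 49585 gene rows and 92 spike-in rows, and a symbol was found for 49326 identifiers.

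CPM values use the gene reads of a cell as the total. Genes at 10 CPM or more in at least 10% of cells were tested. Relations are Spearman's rho with Krt10 over cells, and a gene was called at 0.3 or more, or -0.3 or less, on both plates, a rule of size and not a significance test. Stray reads from other wells were estimated by non-negative least squares from genes with at least 300 reads, at least 70% of them in 2 cells. This estimate over both plates was added after the data were seen, as was the limit of 3 times the background based on it. When tested on simulated data, the estimate put each rate of stray reads somewhat too high, and the rule called most genes given a strong relation and few given a weak one. Alternatives were size factors from scran 1.30.0, spike-in scaling, thinning to 75000 counts, other limits and subsets of cells.

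Named genes were the 8 factors, listed genes past the rule with up to 3 of the most abundant others, and the 3 genes most and least like each factor. Outside that rule, Cebpa, Dnmt3a, Dnmt1, Uhrf1, Kdm1a, Rcor1, Ctbp2, Trp73, Grhl2, Col17a1, Itgb4, Lor, Flg, Ivl and Tgm1 were chosen after their values were seen, and of the early and basal genes a few are named. The factors and lists were chosen with earlier results of these data known, so no pattern is independent support. Reads without molecular identifiers are not independent molecules, so intervals cover counting of cells only. No doublet caller was run, since 1 cell was sorted per well. Python 3.11.15 with scipy 1.17.1 and R 4.3.3 were used. Protein sequences were not analysed here, and some genes that these rules name are not reported here.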

Additional observations from a re-analysis of the deposited data

How the results depend on the processing

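The relation of each factor to Krt10 was recomputed under 15 alternatives, 120 in all. A call was lost in 15 and gained in 3, and no called relation changed direction. The alternatives of plate 1 or plate 2 alone could not lose a call, since a call already needs both plates to pass. Zfp750 (0.420 to 0.673) and Maf (-0.109 to 0.152, so with either sign) kept their side of the limit in all 15. Counts per spike-in read moved the median gene from -0.00458 to 0.10 and gave Trp63 -0.234 and Grhl3 0.326, both uncalled, and Klf4 0.435 and Klf5 0.332, both called. Klf4 also passed on plate 1 alone at 0.385. Subtracting background of the same plate left Ovol1 at 0.351 and Grhl3 at 0.315, and subtracting that of both plates, added after seeing the data, left Grhl3 at 0.271, all uncalled. With Krt1 as the axis Trp63 had -0.318 and Grhl3 0.236, and with the early differentiation score Grhl1 had 0.392, all uncalled. Dropping the 5% richest in genes gave Ovol1 0.354 and Grhl3 0.319, leaving out the 2 cells farthest in Krt10 gave Grhl1 0.367 and Grhl3 0.310, leaving out the 25% with most expected background gave Ovol1 0.374 and Grhl1 0.378, and thinning gave Grhl1 0.388, each uncalled because 1 plate dropped under 0.3. Why the plates differ was not tested.

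Of all genes tested, 0.631% were higher and 0.471% lower. Limits of 0.2 and 0.4 gave 1.82% and 0.268% higher and 1.96% and 0.161% lower. A filter of 10 CPM in 50% of cells, which leaves 4234 genes, gave 0.897% higher and 1.02% lower. Factors at least 2 times as high in the highest as in the lowest bin numbered 3, and 6 after subtraction over both plates. At most 0.5 times as high was 1 factor (Trp63), and 0 with bins by Krt1. Of 48 alternative detection limits or forms, 37 gave a share outside the counting interval. Subtraction lowered the medians of the 4 sparsely detected factors. No paired analysis was possible because all cells form 1 group and no test was made.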
